A study of Homo sapiens with 12 samples.

Results

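The histone genes of the table were examined for their levels after CENPA knockdown. Members were all rows whose symbol started with HIST1H, HIST2H, HIST3H, HIST4H, H1F, H2AF or H3F3, which gave 38 genes of the 14828 in the table. The 26 HIST genes are the replication-dependent histone genes, of which 24 are annotated as protein coding and 2 as pseudogenes (HIST1H1PS1 and HIST2H2BC). The other 12 were grouped as variant genes. Of these, 9 are protein coding, H1FX-AS1 is an antisense long noncoding RNA, and H3F3AP4 and H3F3AP6 are processed pseudogenes of H3F3A. CENPA, itself a variant of histone H3, does not carry any of these prefixes and served only as the check of the knockdown.

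Replication-dependent histone genes supply the bulk of the chromatin proteins that package newly copied DNA, and their transcripts are made mainly in S phase. These mRNAs are unusual in ending at a conserved stem-loop instead of a poly(A) tail, and the stem-loop is bound by SLBP, which guides their processing, translation and decay. Variant histones are encoded by separate genes that mostly give ordinary polyadenylated mRNAs, are made outside S phase as well, and take the place of the replicative proteins at promoters, at sites of DNA damage or in silenced chromatin.

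The cells were 22Rv1, a human prostate carcinoma line, transduced with a lentiviral Tet-On vector and selected with puromycin. The vector carried a nontargeting shRNA (shNT) or a CENPA-directed shRNA (shCENPA1 or shCENPA2), and cells of every group received doxycycline at 2 µg/ml for 72 h, so the shNT controls share the vector and the drug. Each group had 2 libraries, and each library was run in 2 lanes that were averaged to a single value, giving 6 values per gene. Nothing in the labels says that the 2 libraries of a group came from separate cultures, so p-values measure only the spread between libraries, which may be technical. The levels are log2 RPKM, the logarithm of reads scaled to gene length and to library size. Comparisons of level between genes depend on the gene lengths used. These run far beyond the coding sequence for some members and not for others. In such bulk samples fewer cells that make a transcript and less of it per cell cannot be told apart.

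CENPA, the targeted gene, was at 2.46 and 2.18 log2 RPKM with shNT, 0.50 and 0.58 with shCENPA1, and -0.47 and -0.41 with shCENPA2. The groups did not overlap, and CENPA mRNA was 70.9% lower with shCENPA1 and 85.3% lower with shCENPA2. The libraries held 79172294 to 133074655 reads on genes. All 9 prostate carcinoma markers examined were in the table, with FOXA1 at 6.49 to 6.90 and HOXB13 at 7.79 to 8.39 log2 RPKM. The lowest were KLK3 at -2.17 to -0.48, KLK2 at -0.77 to 0.62 and TMPRSS2 at 1.04 to 2.19 log2 RPKM. Of 12 markers of fibroblasts, leukocytes and endothelium, 4 were in the table. LUM was the highest of these at 0.97 to 2.19 log2 RPKM, in the range of TMPRSS2.

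The stem-loop is the sequence feature that sets the members apart, and it is shown here because the libraries were made with a kit that selects polyadenylated RNA. The letters of the histone stem-loop consensus, arms of 6 bases around a loop of 4, were searched within 200 bases after the stop codon on hg38. Pairing itself was not tested and other hairpins were not searched, so a gene without a match only lacks these letters. A match was found in 23 of the 24 coding replication-dependent genes. The exception was HIST1H3E. Among the 9 coding variant genes, H2AFX held a match and the other 8 did not. Over all 19917 coding genes of the GENCODE 44 annotation, 70 held a match (0.351%), and 1 of 19824 coding genes outside the histone families did. The matches lay 28 to 57 bases after the stop codon in the replication-dependent genes. The 5 below include the H2B gene with the highest log2 RPKM in each of 2 clusters and the H2A gene that rose with shCENPA1. The others are the H4 gene that differed between the shRNAs and the variant with a match. They are written as in mRNA 5′ to 3′ with T for U, and capitals mark the 6 paired bases of each stem arm.
HIST2H2BE (chr1:149886183-149886208, minus strand): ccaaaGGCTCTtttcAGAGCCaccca
HIST1H2BK (chr6:27146361-27146386, minus strand): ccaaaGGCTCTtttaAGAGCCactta
HIST1H2AE (chr6:26217412-26217437, plus strand): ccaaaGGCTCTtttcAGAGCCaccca
HIST1H4H (chr6:26285126-26285151, minus strand): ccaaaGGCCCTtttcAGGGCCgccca
H2AFX (chr11:119094893-119094918, minus strand): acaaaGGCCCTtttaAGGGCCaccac

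Over the 24 genes with a match the stem-loop took 7 distinct sequences. The form of HIST2H2BE and HIST1H2AE was shared by 12 genes, that of HIST1H2BK by 5 genes, all of them H2B genes, and that of HIST1H4H by 3 genes, all of them H4 genes. The gene lengths behind the deposited values were longer than the coding sequence and the stretch from it to the end of the stem-loop for 21 of the 23 replication-dependent genes, by over 300 bases for 19 of them. Bases before the start codon are part of this excess. HIST1H4H, for example, was counted over 2163 bases, of which 312 are coding. For HIST1H2AE and HIST1H2AI the excess was 51 and 50 bases, and their annotated genes end near the stem-loop. HIST1H1C and HIST1H2BK were counted over their coding sequence alone (642 and 381 bases). Reads of transcripts that end at the stem-loop and of longer, polyadenylated transcripts from the same gene were not separated in these values, and the levels of the former were not measured on their own.

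Among the variant genes, 3 H2A variants were lower after CENPA knockdown and 1 was higher. H2AFZ and H2AFX with shCENPA2 had the lowest adjusted p of all 38 members in either comparison. H2AFZ and H2AFX fell by 0.81 and 0.83 on the log2 scale with shCENPA2, to 57.0% and 56.4% of shNT, and H2AFV fell by 0.44 with shCENPA2 and by 0.36 with shCENPA1. H2AFY2, which encodes macroH2A2, rose by 0.39 with shCENPA2. Of the 12 variant genes, 1 passed an adjusted p under 0.05 with shCENPA1 and it was lower, and 4 passed with shCENPA2, 3 lower and 1 higher. Over all 14624 genes tested, 7.14% passed with shCENPA1 and 18.5% with shCENPA2, of which the lower genes made 4.45% and 10.5% of those tested and the higher genes 2.69% and 8.05%. No variant gene had a log2 fold change beyond 1, as 2.65% and 6.13% of all genes tested did with an adjusted p under 0.05. The median log2 fold change of the 12 genes was -0.21 with shCENPA1 and -0.29 with shCENPA2, beside 0.0030 and 0.012 over all genes tested. Both shRNAs were compared with the same shNT libraries, so their values are given side by side and are not independent.

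**Figure D1:**
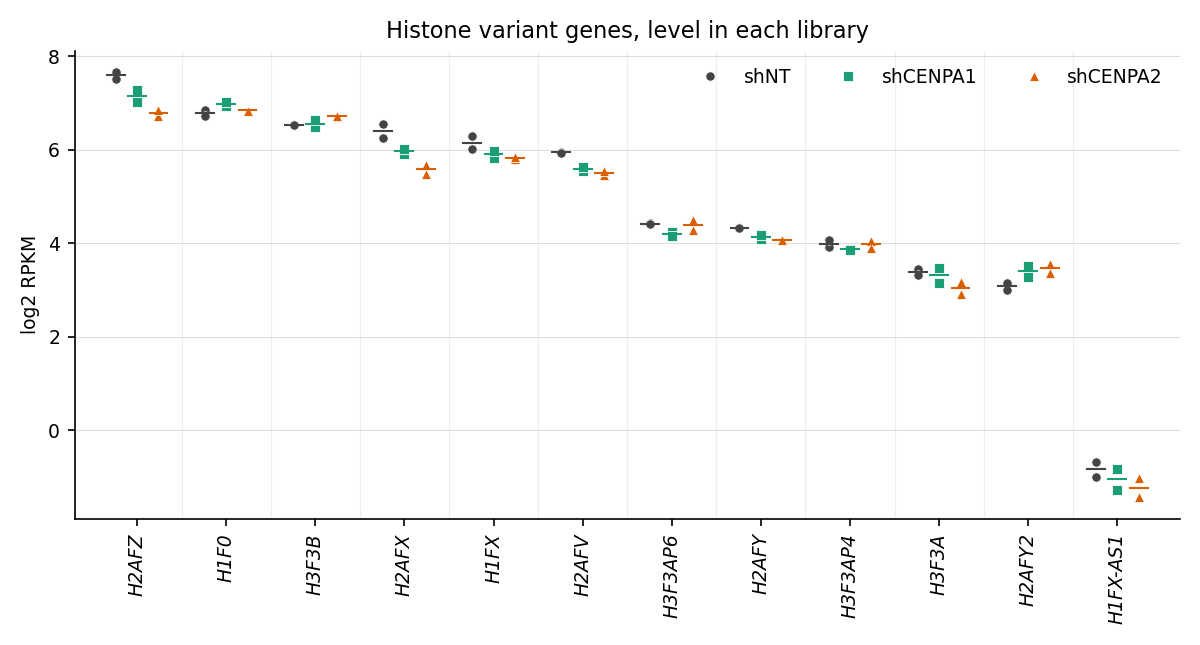
Level of the 12 variant genes in log2 RPKM (vertical axis), ordered by their mean with shNT. Points are the 2 libraries of a group and short lines their mean, with shNT as circles, shCENPA1 as squares and shCENPA2 as triangles. H2AFZ, H2AFX and H2AFV step down from shNT to both knockdowns, H2AFY2 steps up, and H1FX-AS1 lies below 0.

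H2AFZ encodes H2A.Z.1, an H2A variant placed at promoters and enhancers by the SRCAP and p400 remodelling complexes. With shNT it had the highest log2 RPKM of the variant genes. It stood at 7.66 and 7.51 log2 RPKM with shNT, 7.03 and 7.28 with shCENPA1, and 6.71 and 6.84 with shCENPA2. The groups did not overlap: both shCENPA1 libraries lay below both shNT libraries and above both shCENPA2 libraries. The log2 fold change was -0.81 (SE 0.12, adjusted p = 0.0013) with shCENPA2 and -0.44 (SE 0.12, adjusted p = 0.0557) with shCENPA1. The shCENPA2 decrease passed in each of the 20 alternative fits (adjusted p at most 0.0126). The shCENPA1 difference missed the threshold in the main test and passed in 4 alternatives. Among them were a test of the recovered read counts with voom (adjusted p = 0.0176) and limma after quantile normalization (adjusted p = 0.0030). The others took the lanes as observations, as replicates or with an estimated correlation, and lanes of a library are not separate samples.

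H2AFV encodes H2A.Z.2, a close paralog of H2A.Z.1. Its level was 5.96 and 5.93 log2 RPKM with shNT, 5.54 and 5.63 with shCENPA1, and 5.46 and 5.55 with shCENPA2. All knockdown libraries were below both shNT libraries, whereas the 2 knockdowns overlapped each other. H2AFV was the only member to pass with both shRNAs, where 4.13% of all genes tested passed lower with both. It fell by 0.36 under shCENPA1 (SE 0.09, adjusted p = 0.0355) and by 0.44 under shCENPA2 (SE 0.09, adjusted p = 0.0070) as log2 fold changes. These calls rested on few libraries: with shCENPA1 none of the fits without a shNT or a shCENPA1 library passed (log2 fold change -0.41 to -0.32, adjusted p 0.0865 to 0.295), and with shCENPA2 the fits without shNT library 1 or 2 did not (adjusted p = 0.0824 and 0.0684). Under median-centred libraries the shCENPA1 change of H2AFV also missed the threshold (adjusted p = 0.0617).

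H2AFX encodes H2A.X, the variant that is phosphorylated around DNA double-strand breaks. It was at 6.55 and 6.26 log2 RPKM with shNT, 5.91 and 6.02 with shCENPA1, and 5.68 and 5.48 with shCENPA2. As for H2AFZ, the 3 groups did not overlap and shCENPA2 was the lowest. H2AFX fell by 0.83 with shCENPA2 (SE 0.12, adjusted p = 0.0014), and this passed in each of the 20 alternatives (adjusted p at most 0.0137). With shCENPA1 the log2 fold change was -0.44 (SE 0.12, adjusted p = 0.0604). H2AFX carries the stem-loop printed above, and its counted length of 1614 bases is 1117 bases more than the coding sequence and the stretch from it to the end of the stem-loop, bases before the start codon included. Transcripts that end at the stem-loop and longer ones were not told apart in its value.

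Tested directly against each other, the 2 shRNAs did not differ for these genes at the adjusted threshold. The log2 difference of shCENPA2 minus shCENPA1 was -0.38 for H2AFZ (SE 0.12, adjusted p = 0.187), -0.39 for H2AFX (SE 0.12, adjusted p = 0.186) and -0.08 for H2AFV (SE 0.09, adjusted p = 0.754). In summed reads the 3 genes together took 896 and 839 RPM with shNT, 627 and 679 with shCENPA1, and 541 and 564 with shCENPA2, where RPM is the usual rate of reads scaled to the library's total on genes. This trio was chosen after its values were seen, so its sum describes the size of the decrease and is not a further test of it.

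The macroH2A genes encode H2A variants with a large extra domain, found in silenced chromatin and on the inactive X chromosome, and their values lay on opposite sides of shNT. H2AFY2 was at 3.15 and 3.00 log2 RPKM with shNT, 3.29 and 3.51 with shCENPA1, and 3.37 and 3.56 with shCENPA2. All 4 knockdown libraries lay above both shNT libraries. The rise passed narrowly with shCENPA2 (log2 fold change 0.39, SE 0.12, adjusted p = 0.0496) and the difference with shCENPA1 did not pass (0.32, SE 0.12, adjusted p = 0.150). The shCENPA2 call of H2AFY2 was lost in 10 of 20 alternatives, among them the fits without shNT library 1 or 2 (adjusted p = 0.108 and 0.333), without shCENPA2 library 2 (adjusted p = 0.171) and without either shCENPA1 library (adjusted p = 0.0514 and 0.0510). H2AFY, which encodes macroH2A1, was at 4.33 log2 RPKM in each shNT library, at 4.09 and 4.17 under shCENPA1, and at 4.08 and 4.06 under shCENPA2. Although its groups did not overlap, it did not pass with either shRNA (log2 fold change -0.20, adjusted p = 0.209, and -0.26, adjusted p = 0.0659, SE 0.09 in both).

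H3.3 is the replication-independent form of histone H3 and is encoded by H3F3A and H3F3B, which give the same protein. H3F3B was at 6.53 in each shNT library, at 6.49 and 6.63 under shCENPA1, and at 6.71 and 6.73 log2 RPKM under shCENPA2, and it did not pass (log2 fold change 0.03, adjusted p = 0.889, and 0.19, adjusted p = 0.191). H3F3A was lower in level, at 3.46 and 3.32 with shNT, 3.15 and 3.48 with shCENPA1, and 3.16 and 2.91 log2 RPKM with shCENPA2. It did not pass either (log2 fold change -0.07, adjusted p = 0.803, and -0.35, adjusted p = 0.110). The rows of its processed pseudogenes were listed above it with shNT, H3F3AP6 at 4.43 and 4.41 and H3F3AP4 at 3.91 and 4.08 log2 RPKM. Of the 50-base windows in their exons, none of H3F3AP4 and 21.0% of H3F3AP6 occur at a single place in the genome, against 76.7% for H3F3A. How reads that fit several of these places were divided is not given in the sources used here, so the levels of the 3 rows are uncertain, and the pseudogenes did not pass with either shRNA (adjusted p 0.225 to 0.919).

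The linker histone variants hold DNA at the entry to the nucleosome. H1F0, which encodes the H1 form known from differentiated and resting cells, was at 6.85 and 6.72 log2 RPKM with shNT, 6.94 and 7.01 with shCENPA1, and 6.84 in both shCENPA2 libraries. It did not pass with shCENPA1 (log2 fold change 0.19, SE 0.09, adjusted p = 0.266) or shCENPA2 (0.05, SE 0.09, adjusted p = 0.732). H1FX was at 6.29 and 6.01 with shNT, 5.83 and 5.97 with shCENPA1, and 5.80 and 5.85 log2 RPKM with shCENPA2. All 4 knockdown libraries were below both shNT libraries but H1FX did not pass (-0.25, adjusted p = 0.222, and -0.33, adjusted p = 0.0680). The antisense transcript H1FX-AS1 overlaps the H1FX gene on the other strand. It held 153 to 271 reads per library and lay at -1.44 to -0.68 log2 RPKM in the 6 libraries. Its shCENPA1 range overlapped both other groups, and both shCENPA2 libraries were below both shNT libraries. H1FX-AS1 did not pass (-0.22, adjusted p = 0.686, and -0.39, adjusted p = 0.362, SE 0.27 in both). The libraries were made with a strand-specific kit, but the strand setting of the counting is not given in the sources used here, so reads of the pair could have been assigned to either gene.

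Ordered by their shNT level, the variant genes ran from H2AFZ (7.59 log2 RPKM) through H1F0 (6.79), H3F3B (6.53), H2AFX (6.41), H1FX (6.15) and H2AFV (5.95), and then, after a gap of 1.53, from H3F3AP6 (4.42) through H2AFY (4.33), H3F3AP4 (3.99) and H3F3A (3.39) to H2AFY2 (3.08) and H1FX-AS1 (-0.84). The gap between H3F3B and H2AFX (0.124) was smaller than the SD of H2AFX between the shNT libraries (0.208, n = 2), and the gap between H1FX and H2AFV (0.207) was about the SD of H1FX (0.198). The other gaps were larger than the SD of either neighbour. With shCENPA2, H2AFX lay below H1FX and level with H2AFV. This order depends on the lengths counted, which were 19603 bases for H2AFY, 6134 for H3F3B and 2303 for H2AFZ. In reads, H3F3B (61284 in shNT library 1) was above H2AFZ (50439).

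Promoters are shown for the 3 genes that fell and for H2AFY2, since these 4 are the variant genes that passed with at least 1 shRNA. Each is the 150 bases before a single RefSeq start per gene on GRCh38.p14, written 5′ to 3′ on the strand of the gene. Where a gene has several starts, the start used is not always the outermost. For H2AFV the RefSeq gene reaches to 44848126, so the end of the printed window, with its ATTGG, lies inside the gene. Capitals mark CCAAT, the letters bound by NF-Y, or its complement ATTGG.
H2AFZ (chr4:99950276-99950425, minus strand): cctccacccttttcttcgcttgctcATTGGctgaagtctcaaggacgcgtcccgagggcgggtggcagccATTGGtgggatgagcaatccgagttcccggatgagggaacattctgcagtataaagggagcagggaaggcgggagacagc
H2AFX (chr11:119095466-119095615, minus strand): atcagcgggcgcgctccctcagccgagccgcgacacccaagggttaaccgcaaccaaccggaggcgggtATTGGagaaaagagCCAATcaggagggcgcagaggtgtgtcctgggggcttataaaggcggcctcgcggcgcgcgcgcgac
H2AFV (chr7:44848088-44848237, minus strand): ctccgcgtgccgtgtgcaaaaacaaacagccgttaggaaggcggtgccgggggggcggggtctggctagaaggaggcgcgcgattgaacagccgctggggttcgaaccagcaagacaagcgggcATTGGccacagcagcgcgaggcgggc
H2AFY2 (chr10:70052696-70052845, plus strand): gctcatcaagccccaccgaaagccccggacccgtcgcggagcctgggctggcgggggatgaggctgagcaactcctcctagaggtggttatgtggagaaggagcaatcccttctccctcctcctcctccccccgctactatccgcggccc

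In the full promoter windows, 250 bases before to 50 after the start, CCAAT or its complement occurred 4 times in H2AFX, 4 times in H2AFV, 3 times in H2AFZ and 0 times in H2AFY2. Among variant genes that did not pass, the motif occurred 4 times in H3F3B, 1 time in H3F3A and 0 times in H2AFY and H1FX. The H2AFY window lies inside its RefSeq gene, so the bases before its outermost start were not searched. Of the 8 variant genes with a window, 5 held it, as did 21 of 24 replication-dependent genes and 34.6% of the 35116 windows of all genes. The octamer ATTTGCAT, a known element of H2B promoters, was in 7 of 10 H2B windows and 11 of 24 replication-dependent windows, against 1.77% of all windows. TATAAA was in 13 of 24 replication-dependent and 4 of 8 variant windows (11.5% of all). TTTGAA, the cell cycle homology region, was in 8 of 24 and 2 of 8 (15.2% of all), and TTTNNCGC, an E2F-type motif, in 6 of 24 and 1 of 8 (6.89% of all). All motifs were searched on both strands, and none of them contains another. These are matches of letters and no binding was measured.

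Few replication-dependent genes passed the test. Of the 26 genes, 1 rose (HIST1H2AE) and 1 fell (HIST2H2BC, a pseudogene) with shCENPA1, and 0 passed with shCENPA2 by limma, where the lowest adjusted p was 0.0581. At an unadjusted p under 0.05 the count was 6 of 26 with either shRNA, where 22.0% of all genes tested reached this with shCENPA1 and 32.3% with shCENPA2, and voom on the recovered reads gave 0 with either shRNA. Leaving out shCENPA2 library 1 raised the shCENPA2 count to 3, and leaving out shCENPA1 library 1 or 2 raised it to 1 or 2. The log2 fold changes had a median of -0.06 with shCENPA1 and -0.11 with shCENPA2, which was 0.06 without shCENPA1 library 2 and -0.01 without shCENPA2 library 1. With shCENPA1, 23 of 26 genes lay within 0.5 of 0 on the log2 scale, and so did 24 of 26 with shCENPA2. Over all genes tested, 87.7% and 80.2% lay within this range. All 4 knockdown libraries were below both shNT libraries for 4 of the 26 genes and above for 2, where 20.5% and 20.3% of all genes tested did so. For the variant genes the counts were 5 below and 1 above of 12.

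**Figure D2:**
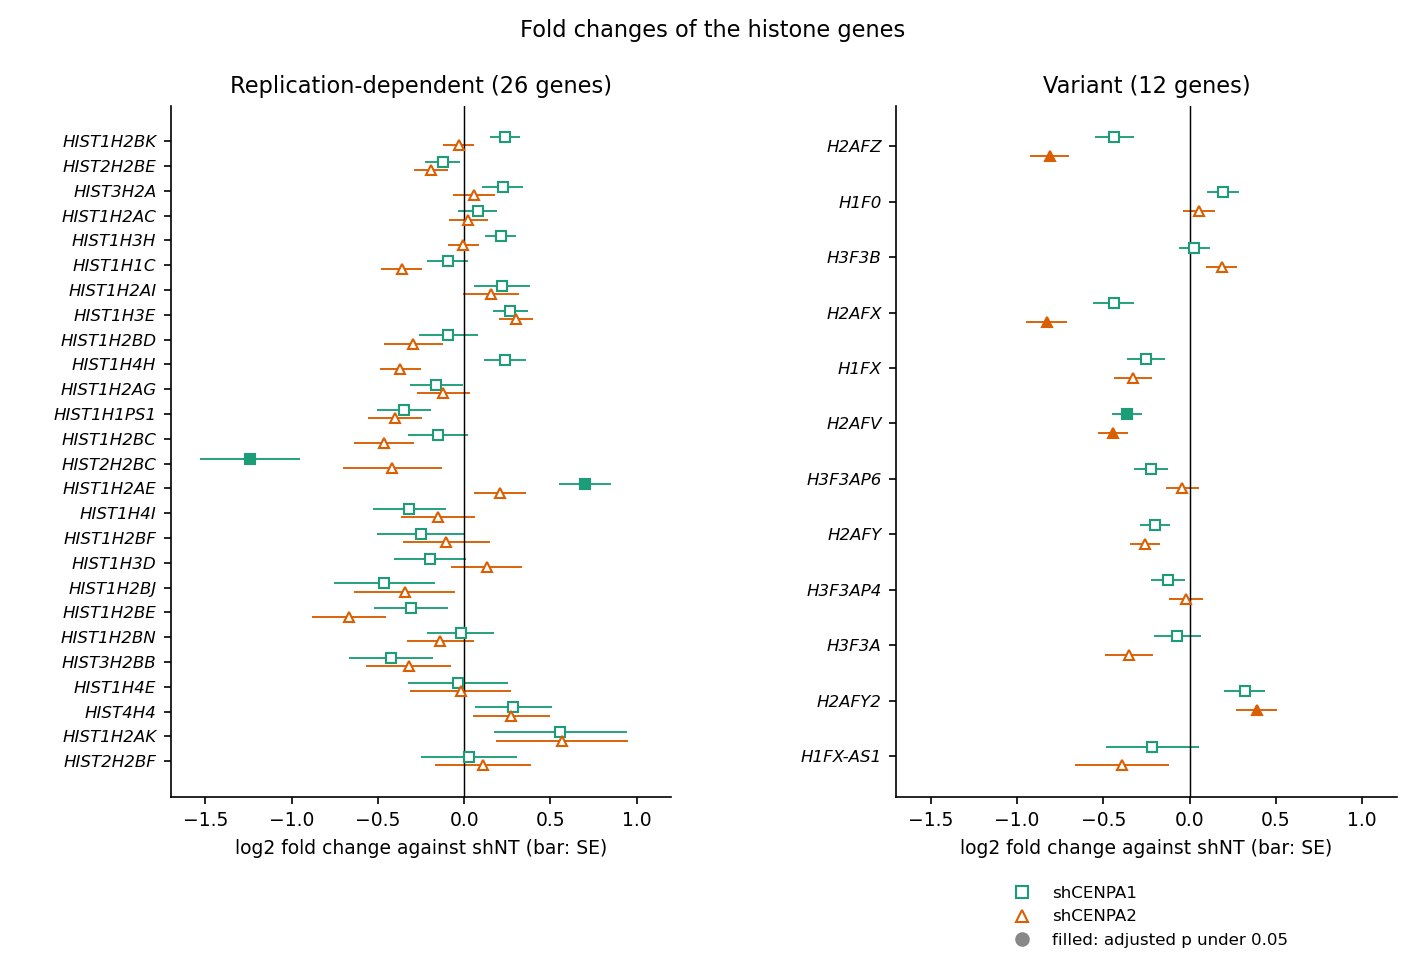
Log2 fold change against shNT (horizontal axis) of the 26 replication-dependent genes and the 12 variant genes, each ordered from the highest to the lowest shNT level. Squares are shCENPA1 and triangles shCENPA2, bars are the standard error and filled symbols passed an adjusted p under 0.05. The filled symbols are HIST2H2BC and HIST1H2AE with shCENPA1, H2AFV with both shRNAs, and H2AFZ, H2AFX and H2AFY2 with shCENPA2.

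By class, the 11 H2B genes had median log2 fold changes of -0.15 with shCENPA1 and -0.30 with shCENPA2, and 10 of them were below 0 with shCENPA2, as were 48.4% of all genes tested. The 6 H2A genes lay at medians of 0.22 and 0.11, with 1 of 6 below 0 in each comparison. The 3 H3 genes had medians of 0.21 and 0.13, the 4 H4 genes 0.10 and -0.09, and the 2 H1 rows -0.22 and -0.38. By cluster, the 20 HIST1 genes of chromosome 6 had medians of -0.06 and -0.11, the 3 HIST2 genes of chromosome 1 -0.13 and -0.19, and the 2 HIST3 genes, also on chromosome 1, -0.10 and -0.13. HIST4H4, the lone HIST4 gene on chromosome 12, was at 0.28 and 0.27. These differences between classes were not tested.

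**Figure D3:**
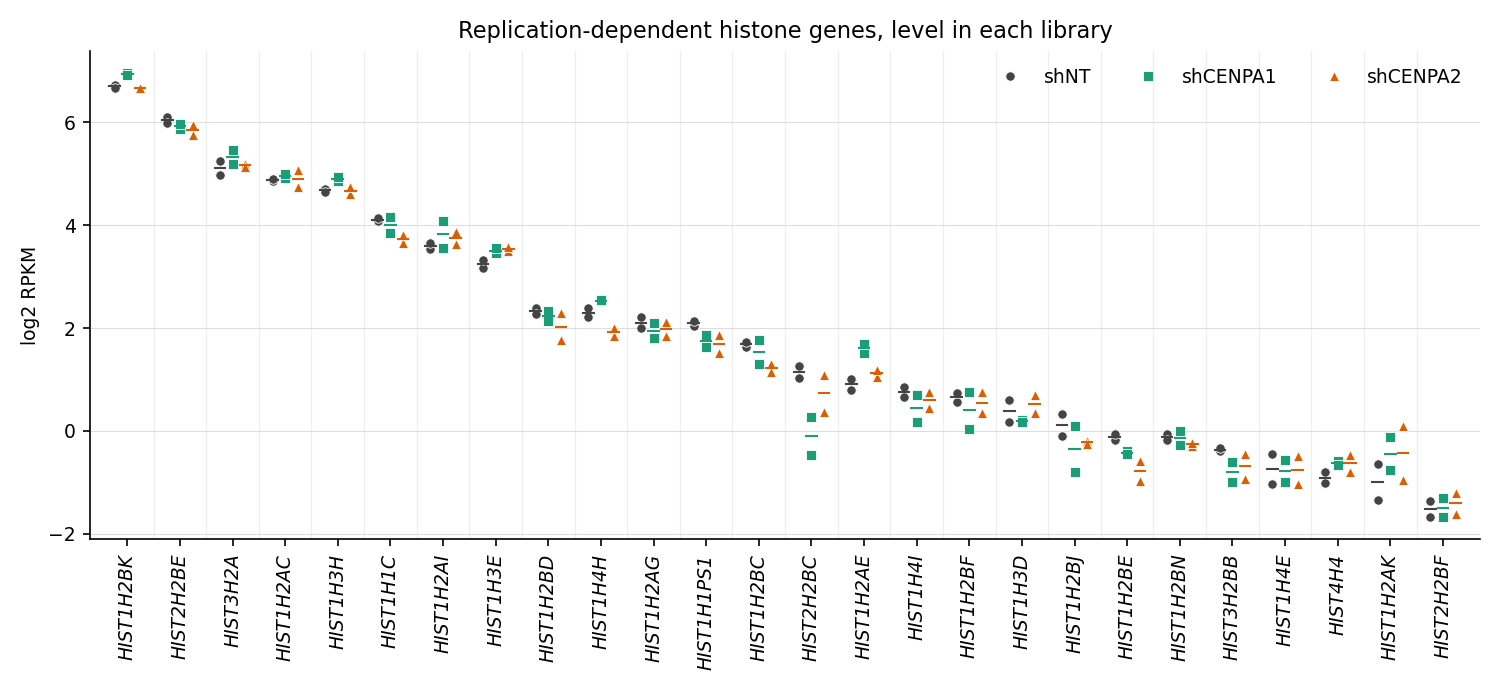
Level of the 26 replication-dependent genes in log2 RPKM (vertical axis), ordered by their mean with shNT. Points are the 2 libraries of a group and short lines their mean, with shNT as circles, shCENPA1 as squares and shCENPA2 as triangles. The levels run from near 7 for HIST1H2BK to below -1 for HIST2H2BF, and for most genes the 3 groups lie on top of each other.

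The 5 replication-dependent genes with the highest log2 RPKM did not pass with either shRNA. HIST1H2BK, an H2B gene, was at 6.73 and 6.68 log2 RPKM with shNT, 6.96 and 6.92 with shCENPA1, and 6.67 and 6.68 with shCENPA2. Its shCENPA1 libraries were the highest (log2 fold change 0.24, SE 0.09, adjusted p = 0.152), and shCENPA2 was level with shNT (-0.03, SE 0.09, adjusted p = 0.832). This value rests on 381 coding bases. Over the 495 annotated exon bases of the gene, 42.8% of the 50-base windows are unique in the genome, and the share for the coding bases alone was not computed. HIST2H2BE, the H2B gene with the most reads (9812 to 18223 per library), was at 6.11 and 5.98 with shNT, 5.87 and 5.97 with shCENPA1, and 5.76 and 5.95 log2 RPKM with shCENPA2. All 4 knockdown libraries lay below both shNT libraries, but HIST2H2BE did not pass (-0.13, adjusted p = 0.509, and -0.19, adjusted p = 0.222, SE 0.10 in both).

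HIST3H2A, an H2A gene that lies outside the main cluster, was at 5.24 and 4.97 with shNT, 5.20 and 5.46 with shCENPA1, and 5.19 and 5.14 log2 RPKM with shCENPA2. HIST1H2AC, also an H2A gene, was at 4.86 and 4.91, 4.93 and 4.99, and 4.75 and 5.06 in the same order. For HIST3H2A the shNT range overlapped both knockdowns, with the shCENPA1 libraries above the shCENPA2 libraries. For HIST1H2AC the shCENPA1 libraries lay above both shNT libraries, and shCENPA2 overlapped the other groups. Both genes had log2 fold changes of 0.02 to 0.22 and did not pass (adjusted p 0.319 to 0.907). HIST1H3H, an H3 gene, was at 4.71 and 4.64 with shNT, 4.85 and 4.93 with shCENPA1, and 4.61 and 4.74 log2 RPKM with shCENPA2. It was level with shNT under shCENPA2 (-0.01, SE 0.09, adjusted p = 0.974) and 0.21 higher with shCENPA1 (SE 0.09, adjusted p = 0.205).

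The genes with the largest mean increase over both shRNAs were HIST1H2AK, HIST1H2AE, HIST1H3E, HIST4H4 and HIST1H2AI, of which only HIST1H2AE passed. HIST1H2AE, an H2A gene, was at 1.02 and 0.80 log2 RPKM with shNT, 1.52 and 1.69 with shCENPA1, and 1.05 and 1.19 with shCENPA2. The shCENPA1 libraries stood clear of the other 4. The log2 fold change was 0.70 (SE 0.15, adjusted p = 0.0235) with shCENPA1 and 0.21 (SE 0.15, adjusted p = 0.382) with shCENPA2, and the difference between the shRNAs was -0.49 (SE 0.15, adjusted p = 0.189). HIST1H2AE held 77 to 173 reads per library, and its shCENPA1 call was lost without either shNT library (adjusted p = 0.0637 and 0.268), without either shCENPA1 library (adjusted p = 0.0648 and 0.159) and with voom on the recovered reads (adjusted p = 0.201). HIST1H3E, the H3 gene without a stem-loop match, was at 3.16 and 3.32 with shNT, 3.46 and 3.56 with shCENPA1, and 3.51 and 3.57 log2 RPKM with shCENPA2. All 4 of its knockdown libraries were above both shNT libraries (0.27, adjusted p = 0.159, and 0.30, adjusted p = 0.0696, SE 0.10 in both). HIST1H2AK had the largest mean increase on few reads (57 to 152 per library), and its libraries ranged from -1.35 to 0.10 log2 RPKM with overlapping groups (0.56 and 0.57, SE 0.38 in both). HIST4H4 and HIST1H2AI had log2 fold changes of 0.15 to 0.28 and adjusted p of 0.442 to 0.555.

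The genes with the largest mean decrease were HIST2H2BC, HIST1H2BE, HIST1H2BJ, HIST1H1PS1 and HIST3H2BB. HIST2H2BC, an H2B pseudogene in the HIST2 cluster, was the member with the largest fold change and the only one past a log2 fold change of 1, where 2.65% of all genes tested were called with shCENPA1. It was at 1.04 and 1.26 log2 RPKM with shNT, 0.27 and -0.46 with shCENPA1, and 1.09 and 0.37 with shCENPA2. The shCENPA1 libraries were below the other 4, and shCENPA2 overlapped shNT. The row of HIST2H2BC held 43 to 129 reads per library, and 20.3% of its 50-base windows are unique. It fell by 1.24 with shCENPA1 (SE 0.29, adjusted p = 0.0326), and the log2 fold change with shCENPA2 was -0.42 (SE 0.29, adjusted p = 0.364). The call was lost without shCENPA1 library 1 (-1.61, adjusted p = 0.0514), without shCENPA1 library 2 (-0.87, adjusted p = 0.257) and without shNT library 2 (-1.13, adjusted p = 0.103).

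HIST1H2BE, an H2B gene, came closest to passing with shCENPA2. It was at -0.17 and -0.05 log2 RPKM with shNT, -0.39 and -0.45 with shCENPA1, and -0.59 and -0.97 with shCENPA2, and the groups did not overlap. The log2 fold change was -0.67 (SE 0.21, adjusted p = 0.0581) with shCENPA2 and -0.31 (SE 0.21, adjusted p = 0.441) with shCENPA1. HIST1H1PS1, an H1 pseudogene row, was at 2.05 and 2.14 with shNT, 1.86 and 1.63 with shCENPA1, and 1.87 and 1.52 log2 RPKM with shCENPA2, so that both knockdowns lay below shNT (adjusted p = 0.225 and 0.106). HIST1H2BJ and HIST3H2BB, both H2B genes at no more than 0.33 log2 RPKM in any library, had log2 fold changes of -0.46 to -0.32 and did not pass (adjusted p 0.354 to 0.461).

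A single member differed between the 2 shRNAs, where 1.42% of all genes tested did. HIST1H4H, an H4 gene, was at 2.21 and 2.38 log2 RPKM with shNT, 2.52 and 2.55 with shCENPA1, and 1.85 and 2.00 with shCENPA2. The shCENPA1 libraries lay above both shNT libraries and the shCENPA2 libraries below them. The difference of shCENPA2 minus shCENPA1 was -0.61 (SE 0.12, adjusted p = 0.0481), while HIST1H4H passed against shNT with neither (0.24, adjusted p = 0.294, and -0.37, adjusted p = 0.0635). HIST1H4H is named because it was the only member to pass and was chosen after its values were seen. The call was lost in every fit that left out a library, with adjusted p of 0.0624 to 0.309, and with voom on the recovered reads (adjusted p = 0.0524).

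In summed reads, the 26 replication-dependent genes took 395 and 390 RPM with shNT, 404 and 403 with shCENPA1, and 366 and 394 with shCENPA2. The group means were thus 392 ± 3.74, 403 ± 0.0828 and 380.0 ± 19.5 RPM (SD, n = 2). HIST2H2BE held the most of these reads, and without it the sums were 246 and 250 with shNT, 273 and 270 with shCENPA1, and 246 and 257 with shCENPA2. The 12 variant genes took 2306 and 2236 RPM with shNT, 1987 and 2095 with shCENPA1, and 1976 and 1998 with shCENPA2. The variant sums were lower in all 4 knockdown libraries than in both shNT libraries. Their group means were 2271, 2041 and 1987 RPM with shNT, shCENPA1 and shCENPA2. Those of H2AFV, H2AFX and H2AFZ among them were 868, 653 and 553 RPM. The decrease of the variant sum was about that of these 3 genes, so the sum does not show a decrease of the other variant genes. The sums weight long and abundant genes and are a description without a test.

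**Figure D4:**
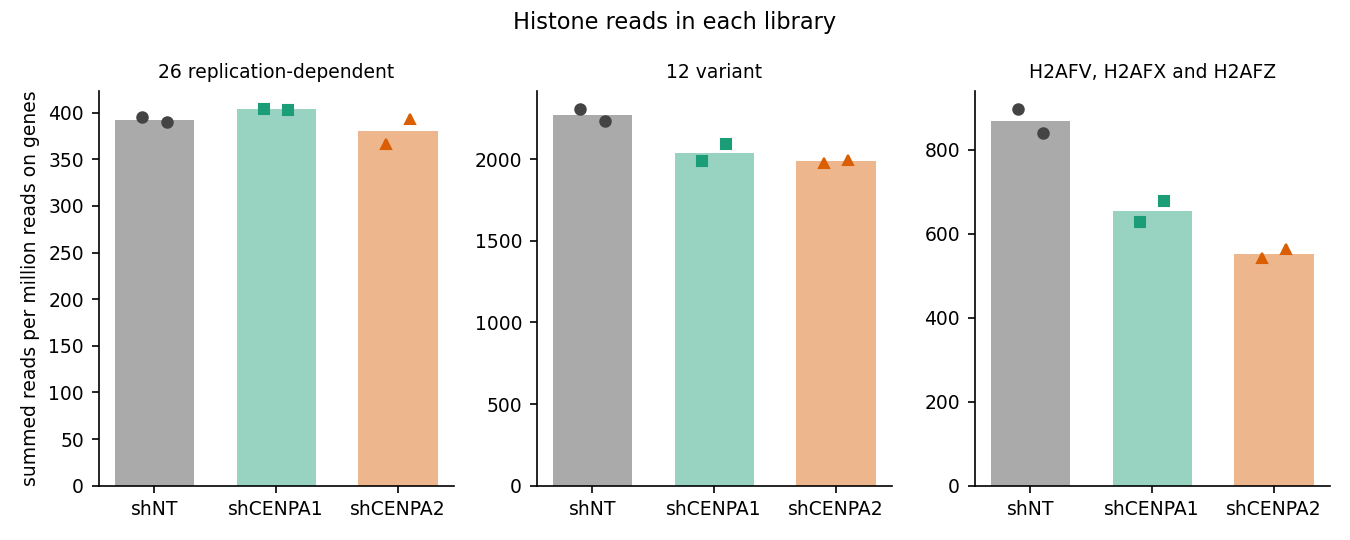
Summed reads in RPM, scaled to the reads on genes of each library (vertical axis, from 0) of the 26 replication-dependent genes, the 12 variant genes, and the 3 genes H2AFV, H2AFX and H2AFZ. Bars are group means and points the 2 libraries of a group. The replication-dependent sum stays between 366 and 404, while the sum of the 3 H2A variants goes from 839 to 896 with shNT to 541 to 564 with shCENPA2.

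Genes that make and process replication-dependent histone mRNA were examined next, as a list of 25 measured genes. With shCENPA1, 1 of 25 passed, and with shCENPA2, 3 of 25 passed, all of them lower. Over all genes tested, 4.45% and 10.5% passed lower, so these counts are near the background. The median log2 fold change of the list was -0.11 and -0.02. SLBP, the stem-loop binding protein, was at 6.38 and 6.36 log2 RPKM with shNT, 5.93 and 6.09 with shCENPA1, and 5.68 and 5.77 with shCENPA2, without overlap between the groups. SLBP fell by 0.36 with shCENPA1 (SE 0.09, adjusted p = 0.0493) and by 0.64 with shCENPA2 (SE 0.09, adjusted p = 0.0014). The shCENPA1 call of SLBP was lost without any of the shNT or shCENPA1 libraries (adjusted p 0.0709 to 0.333), and the shCENPA2 call held without each library in turn (adjusted p at most 0.0127).

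ZNF473, a zinc finger protein that joins SLBP to the U7 particle, fell by 0.82 with shCENPA2 (SE 0.12, adjusted p = 0.0018), from 2.88 and 2.93 with shNT to 2.11 and 2.05 log2 RPKM. ERI1, an exonuclease that trims the histone stem-loop, fell by 0.50 with shCENPA2 (SE 0.12, adjusted p = 0.0163), a call of ERI1 that was lost without shNT library 1 or 2 (adjusted p = 0.161 and 0.122). The genes of the histone locus body, which gathers at the histone clusters, did not pass: NPAT had log2 fold changes of -0.44 and -0.30, and CASP8AP2 -0.54 and -0.45 (adjusted p 0.0918 to 0.279). POU2F1, the octamer-binding factor, was at -0.43 and -0.06 and did not pass (adjusted p = 0.224 and 0.876).

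Of 16 genes for the exchange and chaperoning of H2A.Z and macroH2A, 0 passed with shCENPA1 by limma (1 at an unadjusted p under 0.05) and 3 passed with shCENPA2, all lower. Over all genes tested, 22.0% had an unadjusted p under 0.05 with shCENPA1, and 18.5% passed with shCENPA2 (10.5% passed lower). The list medians were 0.0085 and -0.03. YEATS4, a subunit of the complexes that deposit H2A.Z, was at 5.06 and 5.12 log2 RPKM with shNT, 4.65 and 4.84 with shCENPA1, and 4.43 and 4.47 with shCENPA2. YEATS4 fell by 0.64 with shCENPA2 (SE 0.09, adjusted p = 0.0016). ANP32E, which removes H2A.Z from nucleosomes, and NAP1L1, a chaperone of H2A and H2B, fell by 0.34 (adjusted p = 0.0451) and 0.41 (adjusted p = 0.0164) with shCENPA2. The ANP32E call held in 1 of 6 fits that left out a library (adjusted p 0.0181 to 0.248), and the NAP1L1 call was lost without shCENPA2 library 1 or either shNT library (adjusted p 0.0768 to 0.132). The remodellers SRCAP, EP400 and INO80 did not pass with either shRNA (adjusted p 0.308 to 0.943).

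A list of 22 genes of DNA replication, which like the replication-dependent histone genes are used in S phase, was set beside the members. Of these, 20 passed lower with shCENPA1 and 21 with shCENPA2, where 4.45% and 10.5% of all genes tested did. The median log2 fold changes were -0.99 and -1.27. All 4 knockdown libraries were below both shNT libraries for 21 of 22, as for 20.5% of all genes tested. RRM2, a subunit of ribonucleotide reductase, was at 4.79 and 4.83 log2 RPKM with shNT, 3.56 and 3.57 with shCENPA1, and 3.15 and 3.05 with shCENPA2. The replication-dependent histone medians of -0.06 and -0.11 thus lay near the median of all genes while those of the replication genes did not. These histone values come from a kit that selects polyadenylated RNA. They do not give the level of histone mRNA that ends at the stem-loop. H2AFZ, H2AFX and SLBP fell by less with shCENPA2 than the median of this list. The lists were chosen with earlier results of these data known, and no test compared them. The share of cells in S phase was not analysed here, and its part in these values was not tested.

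**Figure D5:**
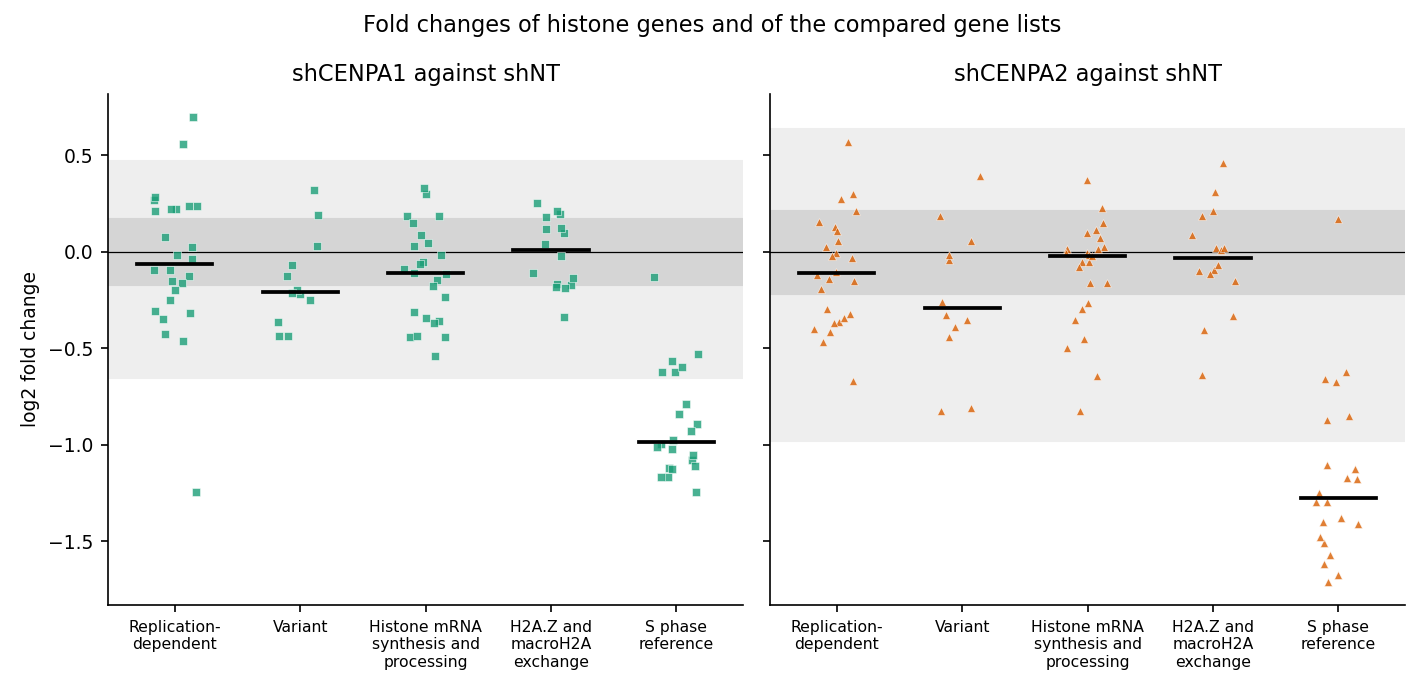
Log2 fold change against shNT (vertical axis) with shCENPA1 (left) and shCENPA2 (right) of the replication-dependent genes, the variant genes and the 3 compared lists. Each point is a gene and each black line the median of its list, with dark grey for the interquartile range and light grey for the 5th to 95th percentile of all genes tested. The S phase list lies mostly below the light grey band, with medians of -0.99 and -1.27, while the replication-dependent histone genes sit around 0. Histone mRNA that ends at the stem-loop was not measured on its own.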

How the data were processed

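RNA-seq of 22Rv1 cells with shNT, shCENPA1 or shCENPA2 was used, 2 libraries per group with 2 lanes each. The authors used Trim Galore for trimming, STAR for alignment to hg38, HTSeq for gene counts and edgeR after that, and deposited log2 RPKM per run for 14828 genes. Versions, strand setting and the handling of reads with several matches are not given in the sources used here. The values hold a prior of 0.25 reads, which draws fold changes of weakly expressed genes towards 0.

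Lanes of a library were averaged. Genes whose mean log2 RPKM reached -3 were kept (14624, all 38 members among them). A single limma fit (version 3.58.1, R 4.3.3) held the 3 groups with trended variance and two-sided contrasts, and p-values were adjusted by Benjamini-Hochberg over all genes tested. Passing meant an adjusted p under 0.05, and genes counted as called also had a log2 fold change beyond 1. In statements on whether the call of a single gene held or was lost in other fits, passing alone is meant. Sample labels number the runs of a group as replicates, whereas the column names give the library and lane. With 2 against 2 libraries an exact permutation test cannot go below 0.33, so none was used.

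Whole reads were recovered from the steps of the values for 14828 of 14828 genes (within 0.01 of a whole read), and gave depths, sums and gene lengths; the fit was tested on simulated data. The SE tended to be larger for members with few reads. It was 0.38 for HIST1H2AK (57 to 152 reads per library) and 0.09 for H3F3B (44296 to 87323). Spread from counting and other spread between libraries were not separated. Stem-loops, 50-base windows and positions come from hg38 with GENCODE 44, and names, promoters and start sites from RefSeq (GRCh38.p14). All 38 members matched RefSeq and GENCODE, and 32 a promoter.

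Members and gene lists were chosen with earlier results of these data known. Named with values were every variant gene, replication-dependent genes called with either shRNA, the 5 with the highest mean level, and the 5 with the largest mean log2 fold change over both shRNAs in each direction. HIST1H4H and genes that passed in the compared lists were named after their values were seen. The alternatives were lanes treated in 4 other ways, a replicate block, other filters, constants added to RPKM, other scalings, limma without the trend, fits of only 2 groups, voom on the recovered reads, and each library left out in turn. Growth, tissue and ChIP data of the study were not analysed here.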

Additional observations from a re-analysis of the deposited data

Results flagged for a closer look

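HIST1H4H differed between the 2 CENPA-directed shRNAs by a test of the difference itself. The level with shCENPA2 was lower than with shCENPA1 by a log2 difference of -0.61 (SE 0.12, adjusted p = 0.0481 from limma), with both shCENPA1 libraries (2.52 and 2.55 log2 RPKM) above and both shCENPA2 libraries (1.85 and 2.00) below the shNT libraries (2.21 and 2.38). The adjusted p ranged from 8.54e-05 with lanes as replicates to 0.309 without shCENPA1 library 2.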

How the results depend on the processing

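H2AFZ and H2AFX with shCENPA2 passed under every alternative run, and no named gene reversed its direction where it passed. The counts of members that passed were small, so most alternatives moved them, and the cause was not tested. Replication-dependent genes that passed with shCENPA1 (2) became 7 with lanes as 4 replicates, 1 with lane 8 only or limma without the trend, and 0 with lane 7 only, lanes with an estimated correlation or voom. With shCENPA2 (0) they became 7 with lanes as 4 replicates and 1 with 1 added to RPKM, lane 7 only, lane 8 only, lanes with an estimated correlation, limma without the trend or only the 2 groups compared. Variant genes that passed with shCENPA1 (1) became 8 with lanes as 4 replicates, 5 with an estimated correlation, 3 with quantile normalization or voom, and 0 with lane 7 only, limma without the trend or median-centred libraries. With shCENPA2 (4) they became 8 with lanes as 4 replicates or with an estimated correlation, 6 with quantile normalization, 5 with voom, and 3 with 1 added to RPKM, lane 8 only, limma without the trend or only the 2 groups compared. Members that passed between the shRNAs (1) became 10 with lanes as 4 replicates, 2 with an estimated correlation, and 0 with 1 added to RPKM, lane 7 only, lane 8 only, limma without the trend, only the 2 groups compared or voom. Lanes of a library are not separate samples, so counts with lanes as replicates overstate n.

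Without each library in turn, replication-dependent genes that passed ranged from 0 to 2 with shCENPA1 and 0 to 3 with shCENPA2, variant genes from 0 to 1 and 2 to 4, and members between the shRNAs stayed at 0. The replication-dependent median ranged from -0.067 to 0.063 with shCENPA1 and -0.11 to -0.015 with shCENPA2, and the variant median from -0.24 to -0.15 and -0.29 to -0.20. The variant median with shCENPA2 was -0.19 with 1 added to RPKM. Deviations of same-numbered libraries had weak negative correlations (-0.064, -0.095 and -0.15 over 14624 genes). With 2 libraries per group this cannot show whether same-numbered libraries shared a culture or a preparation. With the replicate block, 2 and 1 replication-dependent genes passed with shCENPA1 and shCENPA2, 0 and 3 variant genes, and 0 members between the shRNAs.

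For the single genes named, 1241 values kept their side of the threshold, 74 no longer passed and 53 newly passed. Pseudogenes and near-identical genes depend on how reads with several matches were counted, which could not be varied here. With 2 libraries per group, precision is limited.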
